A study of Mus musculus with 102 samples.

Results

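Gene expression in epidermal stem cells of adult calorie-restricted mice was compared between ZT20 and ZT8. Zeitgeber time (ZT) counts hours from lights on. The comparison used 5 arrays of ZT20 and 4 arrays of ZT8, 9 of the 53 adult and 49 aged arrays of the series, chosen by their labelled age, diet and time point. Both groups were Per1-Venus BAC transgenic mice on a C57B6/J background, in which Venus, a fluorescent protein, reports Per1, and both were 47 to 57 weeks old. Both had received 30% less food than the intake of mice fed ad libitum for 25 weeks, after 3 weeks in which their food was cut by 10% per week. The hour of feeding, the lighting schedule and the sex are not given in the labels.

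The series profiled epidermal stem cells of adult mice and of aged mice (83 to 97 weeks) under calorie restriction (CR) or on control diet, at 6 zeitgeber times. Each array is an Affymetrix mouse array of 1 sample, and its values are log2 levels made by the authors with RMA, so that a difference of 1 is a 2-fold change. The design text names 4 mice for each time and diet, so whether all 5 arrays of ZT20 came from separate mice is not given. The p-values of single genes rest on the spread between arrays within a group. That spread was estimated over all 24 groups of the series, not from these 9 arrays alone. On any day 1 mouse of each diet was taken, always at the time point of that day, so day of collection and time point cannot be told apart.

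The mammalian circadian clock is a feedback loop of transcription. BMAL1 (the product of Arntl) with CLOCK or NPAS2 binds E-box motifs and switches on the Per and Cry genes, whose proteins return to silence BMAL1 and CLOCK. In a second loop REV-ERB repressors and ROR activators compete for ROR elements, among others in Arntl, and the PAR bZIP factors DBP, TEF and HLF carry the rhythm to output genes through D-box motifs, where NFIL3 represses. In epidermis the clock is known to time DNA synthesis in basal cells and their response to the environment.

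Basal keratinocyte markers were among the brightest signals at both times. Krt14 averaged 12.44 ± 0.04 at ZT20 and 12.42 ± 0.05 at ZT8, and Col17a1 averaged 12.34 ± 0.04 at ZT20 and 12.47 ± 0.09 at ZT8 (log2 level, SD). Of 6 markers of the hair follicle bulge, Krt15, Sox9 and Postn were measured above the filter level of 4.735, while Cd34, Lhx2 and Lgr5 lay below it. The suprabasal keratins Krt1 and Krt10 were bright as well (11.89 and 11.65 at ZT20, 11.79 and 11.63 at ZT8), so transcripts of basal and of suprabasal keratinocytes were both present. Of 17 measures per array (array median and 10th percentile, sex-linked transcripts and 13 marker lists) none passed an exact two-sided permutation test after adjustment, which no lone measure could, since 0.01587, the smallest p that 9 arrays allow, adjusts to 0.27 over 17 measures. Array medians lay between 5.572 and 5.6 at ZT20 and between 5.522 and 5.588 at ZT8 (exact permutation p = 0.0476, adjusted p = 0.337). The summed level of 5 sebaceous gland markers, 4 of them below the filter level, lay between 7.0 and 7.154 at ZT20 and between 7.174 and 7.266 at ZT8, without overlap and with that smallest exact p of 0.01587. Far2, the marker above the filter level, averaged 5.70 ± 0.15 at ZT20 and 6.15 ± 0.08 at ZT8 and was not called by limma (adjusted p = 0.605). The markers below that level differed less and in both directions (Mc5r 4.67 at ZT20 and 4.54 at ZT8, Cidea 4.16 and 4.19). The part of this sum in any result was not tested. The level of Xist, a transcript of the inactive X chromosome, was above the mean of Y-linked genes in 2 of 5 ZT20 arrays and 3 of 4 ZT8 arrays. Both groups thus mixed arrays of either kind, in unlike shares. Replicate 4 of ZT8 stood farthest from its own group, with a mean correlation of 0.978 with the others.

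Across 13383 genes, 22 were higher (0.164%) and 65 lower (0.486%) at ZT20 than at ZT8, by limma at a Benjamini-Hochberg adjusted p under 0.05. Clock genes were among those that moved most. Dbp, Per3, Nr1d2, Per2 and Tef were 2.72-fold to 11.8-fold lower at ZT20, and Arntl was 5.94-fold higher. Outside the clock, 6 genes of DNA replication and the D-type cyclins Ccnd1 and Ccnd2 were lower at ZT20. Of the 87 genes, 9 rose and 21 fell by more than 2-fold. The arrays of ZT20 and ZT8 did not overlap for 19 of the 22 and 60 of the 65, against 878 of all 13383 genes (6.56%). The number of calls rested on single arrays. Of higher genes there were 13 without replicate 4 of ZT20, 14 without replicate 5 of ZT20, 12 without replicate 2 of ZT8 and 11 without replicate 4 of ZT8. Of lower genes there were 43 without replicate 2 and 35 without replicate 4 of ZT8. Without each of the 9 arrays in turn, 28 of the 87 genes were called every time. Centring the arrays on their medians gave 12 higher and 69 lower genes (14.8% higher, against 25.3%), and repeated quantile normalization gave 46 and 73 (38.7% higher).

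**Figure D1:**
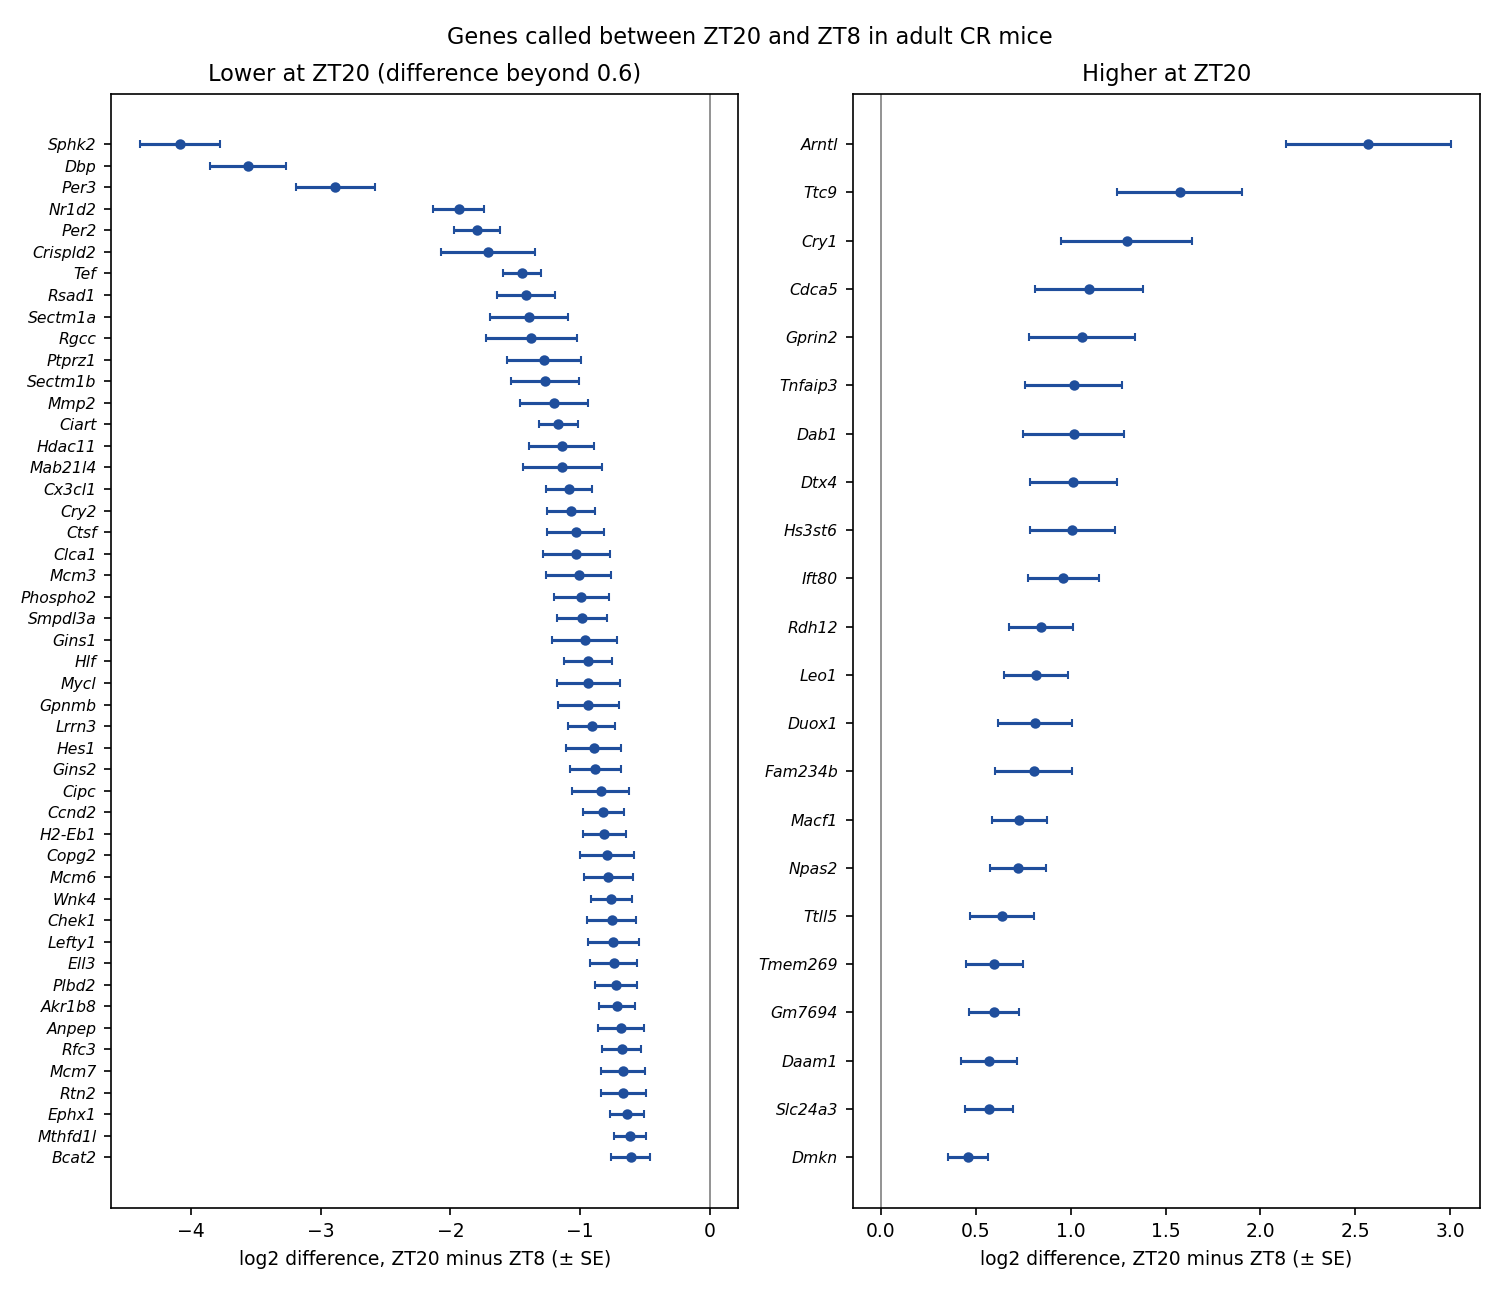
Log2 differences between ZT20 and ZT8 with their standard error (x axis) for genes lower at ZT20 by more than 0.6 (left) and for all 22 genes higher at ZT20 (right). Sphk2, Dbp and Per3 stand far to the left of the other lower genes, and Arntl far to the right of the other higher ones.

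The promoters of 5 clock genes are shown because they carry the motifs of the loops described above and belong to genes that moved between the times. They are RefSeq windows of 300 bases on the gene's strand (build GRCm38.p6), 250 before and 50 after an annotated start. Such a start need not be the outer end of the gene. The printed windows of Arntl (gene at chr7:113178471-113314126) and Tef (gene at chr15:81802673-81826863) lie inside their genes. Ciart lies at chr3:95882179-95882478 (minus strand), Tef at chr15:81811164-81811463 (plus strand, 1 of its windows), Cry1 at chr10:85185005-85185304 (minus strand), Per3 at chr4:151044616-151044915 (minus strand) and Arntl at chr7:113207261-113207560 (plus strand). Capitals mark the E-box CACGTG, the D-box TTATGTAA or TTACGTAA, and the ROR element TAGGTCA, each searched on both strands.
Ciart: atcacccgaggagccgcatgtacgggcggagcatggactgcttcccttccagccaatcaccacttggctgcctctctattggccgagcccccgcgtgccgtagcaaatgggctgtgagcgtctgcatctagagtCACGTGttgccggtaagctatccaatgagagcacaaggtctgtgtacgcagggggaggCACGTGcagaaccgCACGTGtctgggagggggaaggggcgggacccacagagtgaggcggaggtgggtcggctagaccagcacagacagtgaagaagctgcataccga
Tef: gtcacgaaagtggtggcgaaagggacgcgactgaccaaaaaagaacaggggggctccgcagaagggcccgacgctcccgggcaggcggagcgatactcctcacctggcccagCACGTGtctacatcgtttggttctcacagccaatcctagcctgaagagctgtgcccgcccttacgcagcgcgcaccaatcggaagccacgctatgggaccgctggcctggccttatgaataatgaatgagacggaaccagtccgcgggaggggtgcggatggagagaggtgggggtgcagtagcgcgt
Cry1: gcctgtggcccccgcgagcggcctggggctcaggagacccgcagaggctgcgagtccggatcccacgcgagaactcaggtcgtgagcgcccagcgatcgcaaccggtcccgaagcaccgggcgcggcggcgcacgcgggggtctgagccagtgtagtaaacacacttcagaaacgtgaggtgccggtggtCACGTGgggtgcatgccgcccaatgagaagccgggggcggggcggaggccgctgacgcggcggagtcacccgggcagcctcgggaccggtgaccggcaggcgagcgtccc
Per3: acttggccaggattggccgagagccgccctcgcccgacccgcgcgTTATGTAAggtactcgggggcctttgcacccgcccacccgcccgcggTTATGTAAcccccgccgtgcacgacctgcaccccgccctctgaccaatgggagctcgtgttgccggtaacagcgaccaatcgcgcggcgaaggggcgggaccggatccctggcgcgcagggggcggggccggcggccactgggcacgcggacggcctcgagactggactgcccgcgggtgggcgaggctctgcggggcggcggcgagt
Arntl: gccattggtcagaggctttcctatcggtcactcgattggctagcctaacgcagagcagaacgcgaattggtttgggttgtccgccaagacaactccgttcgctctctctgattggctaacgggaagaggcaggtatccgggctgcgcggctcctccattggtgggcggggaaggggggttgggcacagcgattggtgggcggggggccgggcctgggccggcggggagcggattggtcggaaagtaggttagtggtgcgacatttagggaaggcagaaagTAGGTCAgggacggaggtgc
Ciart held 3 E-boxes, which began 116, 58 and 44 bases before its start, and Cry1 held 1 at 60 bases before it. Tef held 1 at 138 bases before the start in the window printed and 1 at 127 bases before it in another of its windows. Per3 held 2 D-boxes, at 205 and 158 bases before its start. The ROR element of Arntl began 30 bases after the start used for its window, which lies inside the gene. No motifs overlapped in the windows of called genes. Of genes lower at ZT20, 10 of 48 with a promoter in the table held an E-box (20.8%), against 1188 of 10721 tested genes (11.1%). The other carriers were Ankrd12, Anxa7, Cipc, Crispld2, Ctsf, Foxred2, Paics and Smpdl3b. Of genes higher at ZT20, 2 of 19 held an E-box (10.5%, Cry1 and Tnfaip3) and 2 of 19 a ROR element (Arntl and Leo1), against 2.4% of tested genes for the ROR element. The D-box was in 0.877% of tested genes and in 1 of the 48 lower genes, Per3.

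Arntl and Npas2, activators of the clock, were higher at ZT20. Arntl, which encodes BMAL1, had levels of 9.47, 8.56, 8.67, 8.82 and 9.40 at ZT20, against 6.99, 7.36, 6.08 and 5.22 at ZT8. Every array of ZT20 lay more than a log2 unit above every array of ZT8, and the arrays of ZT8 were the more scattered. The difference was 2.57 ± 0.44 (SE, adjusted p = 0.000106). Npas2, the CLOCK paralogue, had 7.85, 8.13, 8.03, 8.11 and 7.90 at ZT20, against 7.09, 6.89, 7.59 and 7.55 at ZT8, a difference of 0.72 ± 0.15 (adjusted p = 0.00308). Its groups did not overlap, but the call was lost without replicate 2 of ZT8 (highest adjusted p of any alternative, 0.0744). Averaged over its probe sets the difference of Npas2 was 1.54. Clock itself averaged 6.66 ± 0.20 at ZT20 and 6.26 ± 0.34 at ZT8 and was not called (adjusted p = 0.581), nor was the BMAL1 paralogue Arntl2 (difference 0.08 ± 0.15). Of the 4 activators 2 were thus called, both higher, with a list median of 0.56 (0.87 with the mean of probe sets), against 0.003 over all genes.

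The repressors were mostly low at ZT20, with Cry1 as the exception. Per3 had 6.10, 6.47, 6.00, 5.90 and 6.16 at ZT20, against 9.43, 8.98, 9.11 and 8.52 at ZT8. Per2 had 6.68, 6.11, 6.50, 6.04 and 6.43 at ZT20, against 8.42, 8.32, 8.28 and 7.57 at ZT8. Neither gene's groups overlapped, and the lowest array of ZT8 for both was replicate 4. Per3 fell by 2.89 ± 0.30 (adjusted p = 1.6e-11) and Per2 fell by 1.79 ± 0.18 (adjusted p = 2.07e-12). Averaged over its probe sets Per3 differed by -1.69. Cry2, the partner cryptochrome, fell by 1.07 ± 0.18 (adjusted p = 0.000106). Ciart, which encodes the BMAL1-binding repressor CHRONO, had 6.63, 6.58, 6.51, 6.56 and 6.71 at ZT20, against 7.52, 7.45, 7.96 and 8.12 at ZT8. The ZT20 arrays of Ciart were nearly level and all below those of ZT8 (difference -1.17 ± 0.15, adjusted p = 3.23e-08). Cry1 ran the other way, with 7.99, 6.36, 6.35, 6.41 and 6.85 at ZT20, against 5.84, 5.79, 5.25 and 5.12 at ZT8. Its groups did not overlap, yet replicate 1 of ZT20 stood more than a log2 unit above the others, and the call (1.29 ± 0.34, adjusted p = 0.0477) was lost in 11 of 21 alternatives. Those included leaving out any of replicates 1, 4 and 5 of ZT20 and 2, 3 and 4 of ZT8. Per1 averaged 9.25 ± 0.20 at ZT20 and 9.61 ± 0.26 at ZT8, a difference of -0.36 ± 0.23 that did not pass (adjusted p = 0.667). Of the 6 repressors 4 were called lower and 1 higher, with a list median of -1.12.

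**Figure D2:**
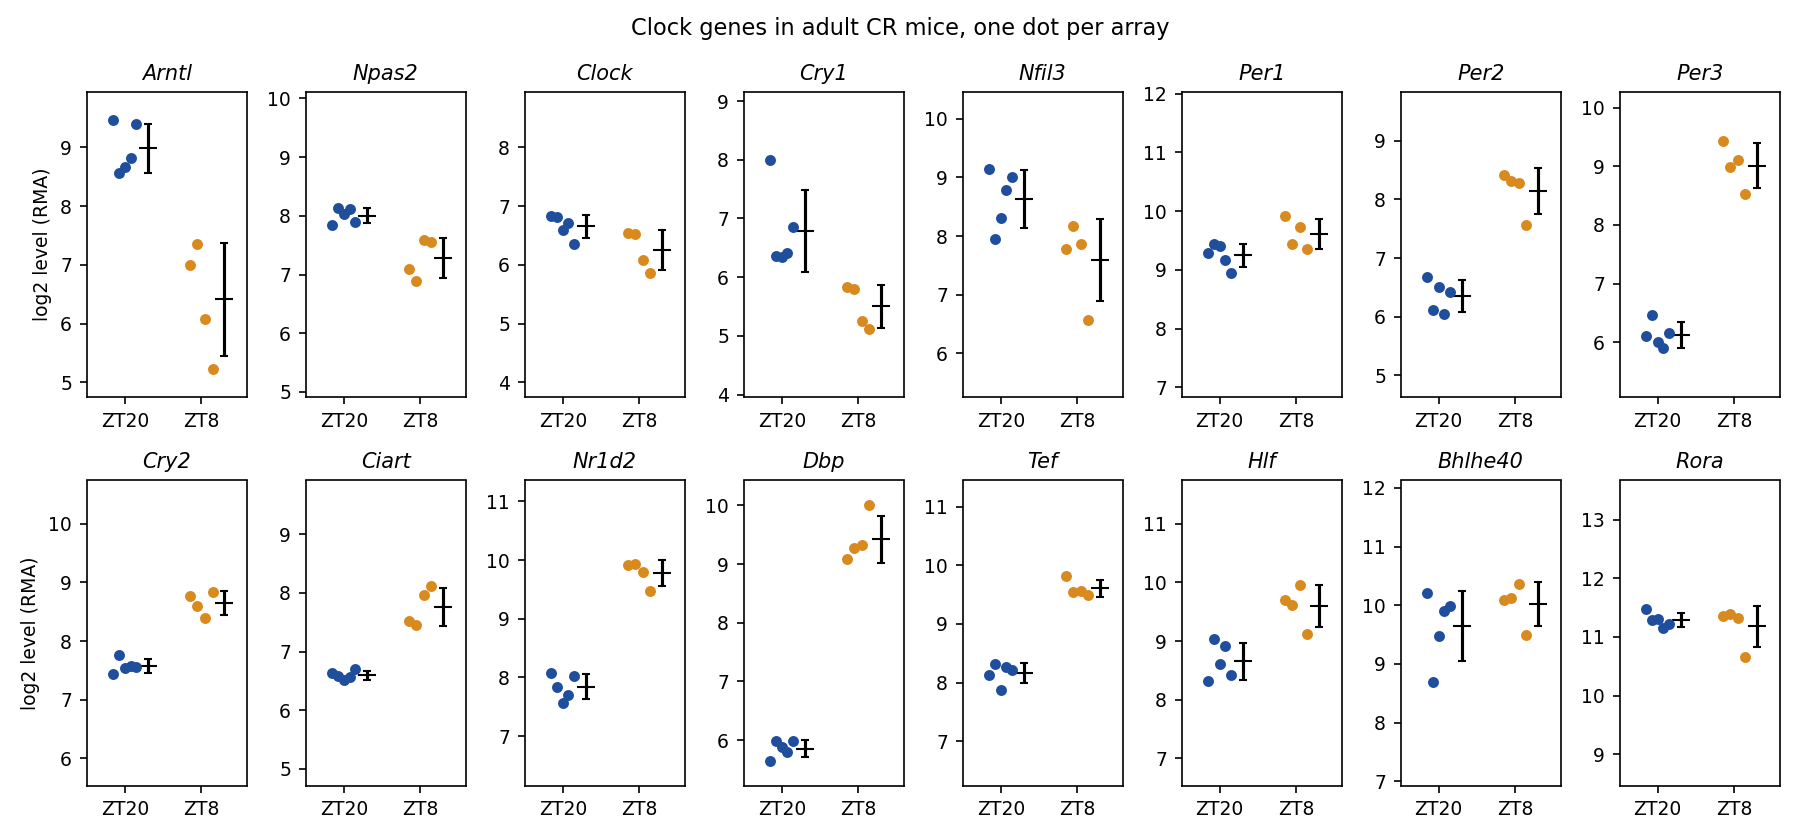
Log2 levels of 16 clock genes on the 5 arrays of ZT20 (blue, left in each panel) and the 4 of ZT8 (orange, right), with the mean ± SD in black; each panel spans the same height of log2 units. Arntl, Npas2 and Cry1 were higher at ZT20, 8 genes from Per2 to Hlf were lower without overlap, and Clock, Nfil3, Per1, Bhlhe40 and Rora were not called.

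The REV-ERB gene Nr1d2 and the PAR bZIP factors were low at ZT20. Nr1d2, a repressor of Arntl, had 8.08, 7.84, 7.57, 7.70 and 8.03 at ZT20, against 9.92, 9.94, 9.79 and 9.47 at ZT8, 3.83-fold lower at ZT20 (difference -1.94 ± 0.20, adjusted p = 6.91e-12). Dbp had 5.64, 5.98, 5.88, 5.80 and 5.99 at ZT20, against 9.08, 9.27, 9.32 and 10.01 at ZT8. Both genes were tight within each time and far apart between them, and Dbp fell by 3.56 ± 0.29 (adjusted p = 3.95e-16). Tef fell by 1.45 ± 0.15 (adjusted p = 3.07e-12) and Hlf fell by 0.94 ± 0.18 (adjusted p = 0.00173), both without overlap. Nfil3, the repressor at the same D-box motifs, averaged 8.64 ± 0.50 at ZT20 and 7.59 ± 0.71 at ZT8 and narrowly missed the threshold (difference 1.04 ± 0.28, adjusted p = 0.0518). Bhlhe40, another repressor of the loop, and the activator Rora were not called (differences -0.37 ± 0.25 and 0.11 ± 0.14). Of 6 kinases, ligases and a protease of the clock (Csnk1d, Csnk1e, Fbxw11, Btrc, Usp2 and Gsk3b) none was called by limma, and 1, Csnk1e, had an unadjusted p under 0.05 (difference -0.37 ± 0.17). Cipc, a further inhibitor of CLOCK that stood on no list and was picked out after its value was seen, averaged 7.07 at ZT20 and 7.91 at ZT8 and was called lower (difference -0.84 ± 0.22, adjusted p = 0.0446). Its groups overlapped, and the call of Cipc was lost in 12 of 21 alternatives, 7 of them the omission of 1 array (any but replicate 1 of ZT20 and replicate 2 of ZT8).

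The largest difference of all was that of Sphk2, a sphingosine kinase, but its signal cannot be separated from that of Dbp. The chosen probe set read 6.20, 6.47, 6.32, 6.50 and 6.22 at ZT20, against 10.28, 10.44, 10.41 and 10.59 at ZT8 (difference -4.09 ± 0.31). Sphk2 (chr7:45709463-45718002) overlaps Dbp (chr7:45705100-45710203), and a second probe set of Sphk2 differed by 0.48 in the other direction, so that the mean of both was -1.80. Per3 overlaps Uts2 and Ciart overlaps C920021L13Rik in the same annotation, and both neighbours are on the array.

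Some genes of DNA replication were lower at ZT20. Of 31 tested members 6 were called lower and none higher, against 65 of all 13383 genes called lower (0.486%). Below 0 lay 27 of the 31, against 49.4% of all genes, and the list median was -0.25, which was -0.39 without replicate 1 of ZT8 and -0.38 with the filter at the 50th percentile. Gins2, a subunit of the replicative helicase, had 8.27, 8.44, 8.79, 8.58 and 8.73 at ZT20, against 9.04, 9.62, 9.64 and 9.48 at ZT8. Mcm3, part of the same helicase, had 7.69, 7.22, 7.78, 7.39 and 7.89 at ZT20, against 8.22, 8.88, 8.89 and 8.43 at ZT8. In both genes all arrays of ZT20 lay below all of ZT8 (differences -0.88 ± 0.19 and -1.01 ± 0.25, adjusted p = 0.00642 and 0.0304). The helicase subunits Mcm6 and Mcm7, the GINS subunit Gins1 and the clamp loader subunit Rfc3 fell by 0.78, 0.67, 0.96 and 0.68. Of the 6 only Gins2 was called without each array in turn. The number called was 3 without replicate 2 or without replicate 4 of ZT20, 2 without replicate 2 or without replicate 3 of ZT8, 1 without replicate 4 of ZT8, and 3 with only the 30 adult CR arrays in the fit. It was 10 with only the 9 arrays of the comparison and 14 with array quality weights. Chek1, the checkpoint kinase of stalled replication, was the 1 called member of 26 DNA repair genes (difference -0.76 ± 0.19, adjusted p = 0.032, and as high as 0.268 in the alternatives). The call of Chek1 was lost in 9 alternatives, among them without any of replicates 2 to 5 of ZT20 and without replicate 2 or 4 of ZT8, and its difference was -0.42 as the mean of its probe sets.

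Among 21 genes of G1 to S control, Ccnd1 and Ccnd2, the cyclins that drive entry into the cycle, were called lower, against 0.486% of all genes. Ccnd2 had 11.04, 10.86, 11.25, 11.37 and 11.39 at ZT20, against 11.94, 11.99, 12.19 and 11.91 at ZT8 (difference -0.82 ± 0.16, adjusted p = 0.00156). Ccnd1 had 10.57, 10.64, 10.85, 10.90 and 10.84 at ZT20, against 11.08, 11.24, 11.23 and 11.21 at ZT8 (difference -0.43 ± 0.09, adjusted p = 0.00261). Neither gene overlapped between the times. The call of Ccnd1 was lost when only the 9 arrays entered the fit (adjusted p = 0.0633). Of 24 mitosis genes none was called by limma, 5 had an unadjusted p under 0.05 and 22 lay above 0, with a median of 0.30, which was 0.14 without replicate 4 of ZT8. Over all 13383 genes 1157 had an unadjusted p under 0.05 and 6776 lay above 0. The spindle motor Kif11 came nearest to a call among the mitosis genes (1.02 ± 0.28, adjusted p = 0.0529). Cdca5, which protects sister chromatid cohesion and is not on that list, was called higher at 1.10 ± 0.28 (adjusted p = 0.0409), a call lost in 10 of 21 alternatives, 7 of them the omission of 1 array (any but replicate 2 of ZT20 and replicate 2 of ZT8).

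**Figure D3:**
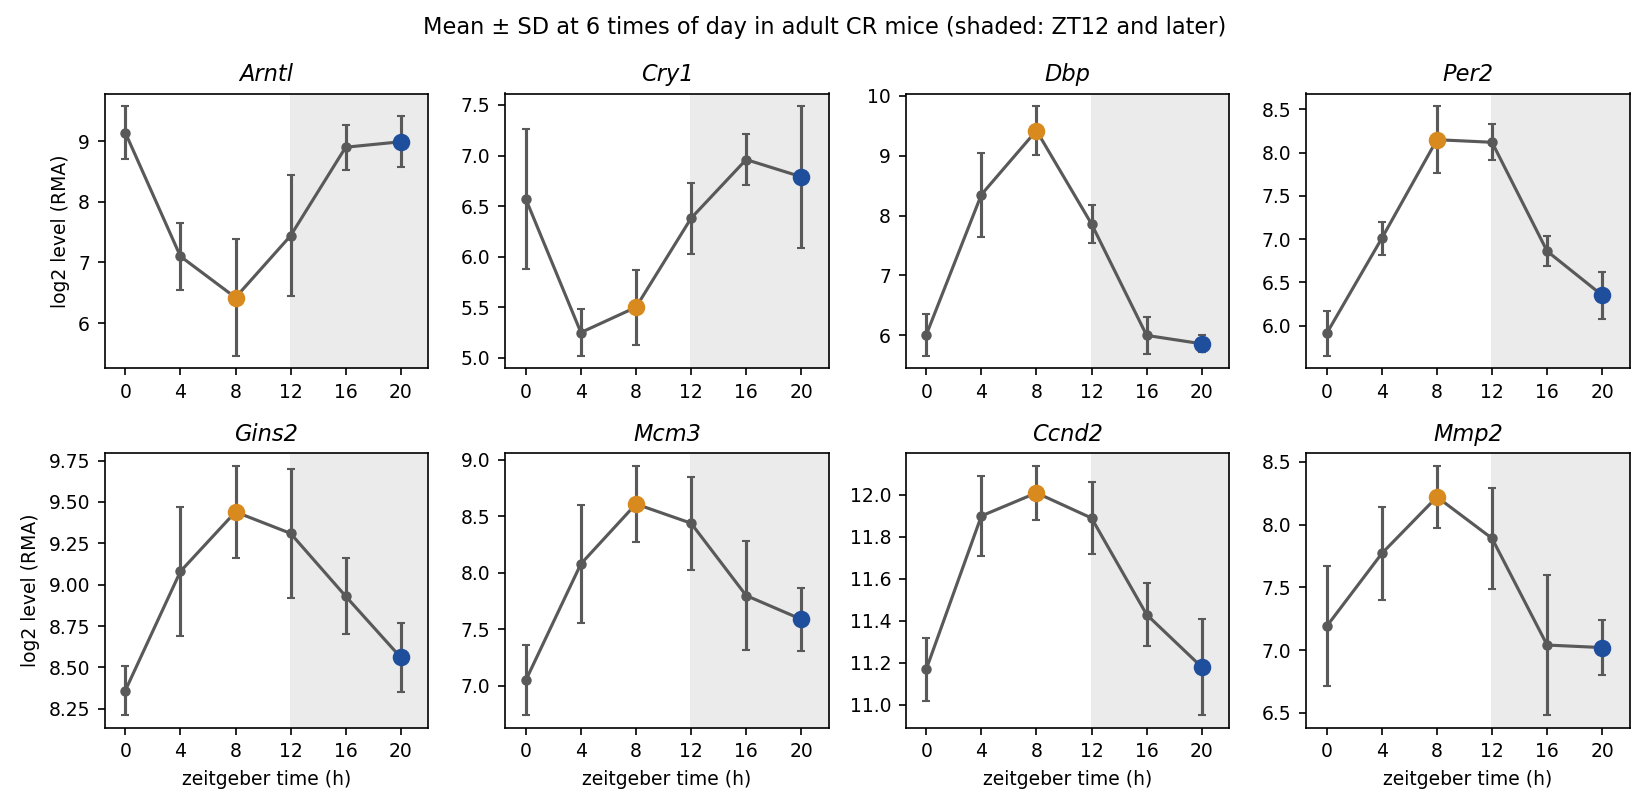
Mean log2 level ± SD at 6 zeitgeber times in adult CR mice (4 to 6 arrays each) for 4 clock genes (top) and 4 genes of the cell cycle and matrix (bottom), with ZT20 in blue and ZT8 in orange; the grey area marks ZT12 and later. Arntl and Cry1 are low at ZT4 and ZT8, while Dbp, Per2 and all 4 genes of the bottom row have their highest mean at ZT8.

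Of the 12 largest rises, 10 were of genes outside the clock lists. Ttc9, a tetratricopeptide repeat protein, had 6.27, 7.48, 7.13, 6.83 and 7.01 at ZT20, against 5.20, 5.49, 5.45 and 5.34 at ZT8 (difference 1.57 ± 0.33, adjusted p = 0.00406). Its arrays of ZT8 were nearly level and all below those of ZT20. Tnfaip3, which encodes A20, an inhibitor of NF-kappaB signalling, had 11.14, 10.13, 10.63, 10.93 and 10.93 at ZT20, against 10.15, 10.16, 10.13 and 8.50 at ZT8. Its groups overlapped, replicate 4 of ZT8 was far below the rest, and without that array the difference of 1.02 ± 0.26 (adjusted p = 0.032) was 0.61 and no longer called. The call was also lost without replicate 1, 4 or 5 of ZT20. The Notch ligase Deltex gene Dtx4 (1.01 ± 0.23) and the heparan sulfate sulfotransferase Hs3st6 (1.01 ± 0.22) were called higher. The intraflagellar transport gene Ift80 (0.96 ± 0.19), the retinol dehydrogenase Rdh12 (0.84 ± 0.17) and Leo1, a subunit of the PAF1 elongation complex (0.82 ± 0.17), were called higher without each array in turn, as was Ttc9. The call of Dtx4 was lost without replicate 2 of ZT20 or of ZT8, and that of Hs3st6 without replicate 3 of ZT8. Gprin2 (1.06 ± 0.28) and the reelin adaptor Dab1 (1.02 ± 0.27) each lost the call in 12 of 21 alternatives. Among single omissions Gprin2 kept it only without replicate 1 of either time, and Dab1 only without replicate 1 of ZT8.

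Among the falls outside the clock, Crispld2, a secreted protein, had 5.64, 5.20, 5.43, 5.59 and 5.20 at ZT20, against 5.75, 7.95, 6.25 and 8.53 at ZT8. The arrays of ZT20 were level and low while those of ZT8 spread over nearly 3 log2 units, and the call (difference -1.71 ± 0.36, adjusted p = 0.00441) was lost without replicate 2 or replicate 4 of ZT8. Mmp2, a gelatinase of the matrix, had 6.78, 7.38, 6.96, 7.04 and 6.96 at ZT20, against 8.23, 8.09, 8.01 and 8.57 at ZT8 (difference -1.20 ± 0.26, adjusted p = 0.00642). It was the 1 called member of 14 matrix enzymes, its groups did not overlap, and the call was lost without replicate 4 of ZT8 (adjusted p = 0.0654). The receptor phosphatase Ptprz1 fell by 1.28 ± 0.29, and the neighbouring genes Sectm1a and Sectm1b, whose related transcripts the array may not separate, differed by -1.39 ± 0.30 and -1.27 ± 0.26. Rsad1 fell by 1.42 ± 0.22, with levels of 4.26 to 4.64 at ZT20 that lay below the filter level. Rgcc, a regulator of the cell cycle, fell by 1.38 ± 0.35 with overlapping groups and lost its call in 7 alternatives, 6 of them the omission of 1 array (replicate 1, 3 or 4 of ZT20, or 1, 2 or 3 of ZT8).

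Hes1, a target of Notch signalling, was the 1 called member of 28 genes of WNT, BMP, TGF-beta and Notch signalling. It had 8.62, 8.16, 8.27, 8.01 and 8.46 at ZT20, against 8.81, 9.29, 9.29 and 9.42 at ZT8 (difference -0.90 ± 0.21, adjusted p = 0.0157). All arrays of ZT20 lay below those of ZT8, and the call was lost without replicate 4 of ZT20 or any of replicates 2, 3 and 4 of ZT8. Mthfd1l, a mitochondrial enzyme of one-carbon metabolism, was the 1 called of 16 genes of amino acid and one-carbon metabolism (difference -0.62 ± 0.12, adjusted p = 0.00201). Psmb9, a subunit of the immunoproteasome, was the 1 called of 16 genes of interferon response and antigen presentation. It had 9.17, 9.41, 9.50, 9.52 and 9.47 at ZT20, against 9.91, 10.30, 9.87 and 9.97 at ZT8 (difference -0.60 ± 0.13, adjusted p = 0.00642), and lost its call without replicate 2 of ZT8 (adjusted p = 0.0984). Of that list 13 of 16 lay below 0, against 49.4% of all genes. The list median was -0.38, which was -0.17 without replicate 2 of ZT8 and -0.22 with the mean of probe sets.

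H2-Eb1, a class II gene singled out after its value was seen, had 7.17, 7.24, 7.46, 7.57 and 7.62 at ZT20, against 7.81, 9.03, 7.73 and 8.34 at ZT8 and was called lower (difference -0.81 ± 0.17, adjusted p = 0.00261), a call lost without replicate 2 of ZT8. The class II genes H2-Aa and Cd74 were not called (differences -0.48 ± 0.18 for both, adjusted p = 0.309 and 0.338). Langerhans cells carry these molecules. The log2 of the summed level of 6 of their markers ranged between 10.1 and 10.44 at ZT20 and between 10.34 and 11.19 at ZT8 (exact permutation p = 0.111). Epcam was the brightest of the 6 and weighed most in that sum. It averaged 9.46 at ZT20 and 9.57 at ZT8 and was not called (difference -0.11 ± 0.22). Of the 6, Ptprc lay below the filter level, Cd207 was near it (4.77 at ZT20 and 4.81 at ZT8) and H2-Ab1 was not called (difference -1.09 ± 0.44, adjusted p = 0.38). The part of these cells in the result was not tested, and in bulk RNA fewer cells of a type and less RNA per cell cannot be told apart.

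Many metabolic and stress lists held no called gene. Of 22 fatty acid oxidation genes none was called by limma, 3 had an unadjusted p under 0.05 and 19 lay below 0, with a median of -0.20, which was -0.08 without replicate 4 of ZT8, -0.12 without replicate 3 of ZT8, -0.10 without replicate 1 of ZT20 and -0.09 with array quality weights. Cpt1a, which admits fatty acids to mitochondria, and the isomerase Eci2 missed the threshold (differences -0.67 ± 0.18 and -0.94 ± 0.26, adjusted p = 0.0529 for both). Acaa2, a thiolase of fatty acid oxidation, stood on no list and was picked out after its value was seen. It was called lower by limma (difference -0.50 ± 0.12, adjusted p = 0.0237), a call lost in 4 single omissions named below. Of 20 genes of the unfolded protein response none was called, 7 had an unadjusted p under 0.05 and 18 lay above 0, with a median of 0.24. Its chaperone Hsp90b1 came nearest (0.35 ± 0.10, adjusted p = 0.0861). Glycolysis, with 15 genes tested, the TCA cycle, with 18, and ribosome biogenesis, with 20, had no called gene and no gene with an unadjusted p under 0.05. Of 13 glucocorticoid-induced genes none was called and 3 had an unadjusted p under 0.05. In all, the 33 lists held 544 tested genes, of which 25 were called, so 62 of the 87 called genes stood on no list. By limma 1157 of the 13383 genes had an unadjusted p under 0.05, and 6776 lay above 0 and 6607 below.

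The times 4 h to either side were read as a check on other arrays of the same condition. The mean of ZT16 and ZT0 (10 arrays) was set against the mean of ZT4 and ZT12 (11 arrays), which shares no array with the comparison of ZT20 and ZT8, although 1 fit gave the spread for both. In that contrast 130 genes (0.971%) were higher and 630 (4.71%) lower. Of the 22 genes higher at ZT20 all 22 had the same sign and 6 were called (27.3% of these 22 and 4.62% of the 130). Of the 65 lower genes 63 had the same sign and 41 were called (63.1% of the 65 and 6.51% of the 630). Over all genes 45.3% lay above 0 and 54.7% below. Dbp differed by -2.10, Per3 by -1.89, Per2 by -1.18, Nr1d2 by -1.13 and Tef by -1.03 in it, and Arntl by 1.75. Per1, not called between ZT20 and ZT8, was called there (-0.84, adjusted p = 0.000111), as was Nfil3 (0.66, adjusted p = 0.0197). Of the 31 replication genes 16 were called lower there, while of the 24 mitosis genes none was called. Other lists held calls there too. Lower were 6 of 26 DNA repair genes, 5 of 22 of fatty acid oxidation and 3 of 13 glucocorticoid-induced genes. Of 20 genes of the unfolded protein response 4 were called there, 1 of them lower. Glycolysis, the TCA cycle and ribosome biogenesis had no call there. Hes1 (-0.11), Psmb9 (-0.12), Crispld2 (-0.31), Tnfaip3 (0.42), Cdca5 (0.20) and Ift80 (0.11) were not called there. Nor were Ttc9 (0.55), Leo1 (0.20), Dtx4 (0.14), Hs3st6 (0.30), Gprin2 (0.18) and Dab1 (0.51). The same held for Rgcc (-0.67), Sectm1a (-0.54), Sectm1b (-0.45) and H2-Eb1, which was level there (0.0007). Across all genes the 2 contrasts correlated at Pearson r = 0.619 (13383 genes, which are not independent replicates). Among the 4 other times, the lower genes were highest at ZT12 in 39 cases, at ZT4 in 24 and at ZT0 in 2, and the higher genes were highest at ZT0 in 14 cases and at ZT16 in 8.

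**Figure D4:**
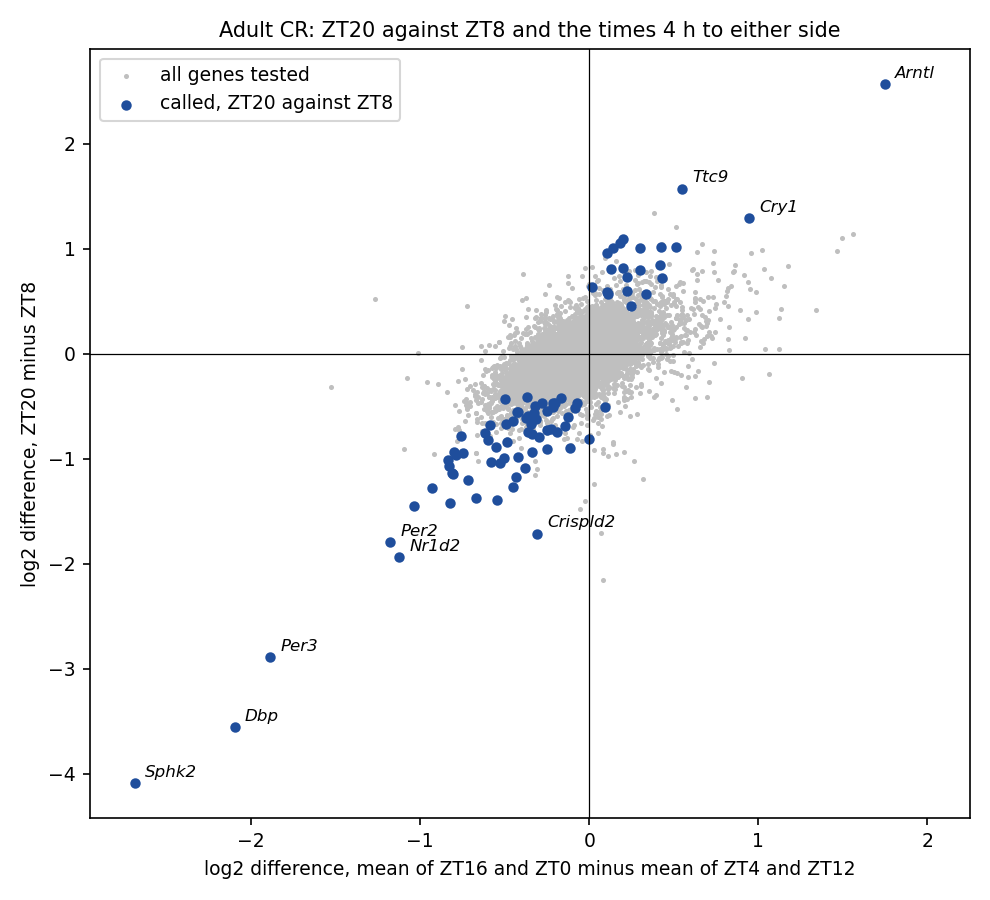
Each dot is 1 of 13383 genes (grey) or of the 87 called genes (blue): the y axis gives the log2 difference of ZT20 minus ZT8 and the x axis that of the mean of ZT16 and ZT0 minus the mean of ZT4 and ZT12, both in adult CR mice. All but 2 of the called genes lie in the quadrants of equal sign, and Crispld2 stands out by its small value on the x axis.

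The same times were compared in the other 3 conditions of age and diet. In adult control mice 27 genes (0.202%) were higher and 13 (0.0971%) lower at ZT20. In aged CR mice the counts were 18 (0.134%) and 25 (0.187%), and in aged control mice 9 (0.0672%) and 11 (0.0822%). Dbp, Per3, Nr1d2 and Sphk2 were called lower in all 4 conditions, and 75 of the 87 genes had the same sign in all 4, against 4630 of all 13383 genes (34.6%). Across all genes the differences of adult CR mice correlated at Pearson r = 0.606 with those of aged CR mice. The value was 0.561 with aged control and 0.360 with adult control mice. Of the 22 higher genes 9 were called in aged CR, 2 in adult control and 0 in aged control mice. Of the 65 lower genes 19 were called in aged CR, 8 in adult control and 4 in aged control mice. ZT20 and ZT8 had 5 and 4 arrays in aged CR, 4 and 3 in adult control and 5 and 3 in aged control mice. The counts of calls thus do not compare like with like. In the same order, 22, 21 and 20 of the higher genes kept their sign (50.1%, 59% and 52.5% of all genes were above 0). Of the lower genes 64, 59 and 60 did (49.9%, 41% and 47.5% of all genes were below 0). Since the 87 genes were chosen in adult CR mice, their differences there are favoured by the choice: the absolute difference was larger than in adult control mice for 80 of them and than in aged CR mice for 76.

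Per2 shows the spread of the conditions. It differed by -1.79 in adult CR and -2.20 in aged CR mice, and by -0.73 in adult control and -0.42 in aged control mice. Arntl differed by 2.57 in adult CR and 2.18 in aged CR mice, and by 0.66 in adult control and 1.03 in aged control mice. Nr1d2 differed by -1.94, -1.92, -1.65 and -1.56 in adult CR, aged CR, adult control and aged control mice, and Ccnd2 by -0.82, -0.79, -0.87 and -0.58. Hes1 was called in adult CR mice and differed by -0.07 in aged CR, 0.02 in adult control and -0.41 in aged control mice.

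The difference between the conditions was itself tested. No gene passed between adult CR and adult control mice (0%, with 512 genes at an unadjusted p under 0.05) or between adult CR and aged CR mice (0%, with 94), by limma with adjustment over 13383 genes. Closest between the diets were Cd59a, an inhibitor of complement, Per2 and Ccnq, a cyclin. The ZT20 minus ZT8 difference of Per2 in adult CR mice minus that in adult control mice was -1.06 (95% interval -1.60 to -0.52, unadjusted p = 0.000173, adjusted p = 0.9998). That of Cd59a was 0.08 in adult CR and 1.11 in adult control mice, and that of Ccnq -0.36 and 0.33. For Arntl the diets differed by 1.91 (95% interval 0.59 to 3.23) and for Dbp by -1.48 (-2.37 to -0.59), neither past the adjusted threshold. Closest between the ages were Rgcc (-1.38 in adult CR and 0.24 in aged CR mice), Kctd17 (-0.11 and 0.69) and the cilium gene Wdr19 (0.10 and -0.33). For Per2 the interval between the ages ran between -0.10 and 0.90, and for Per3 between -0.74 and 0.98.

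**Figure D5:**
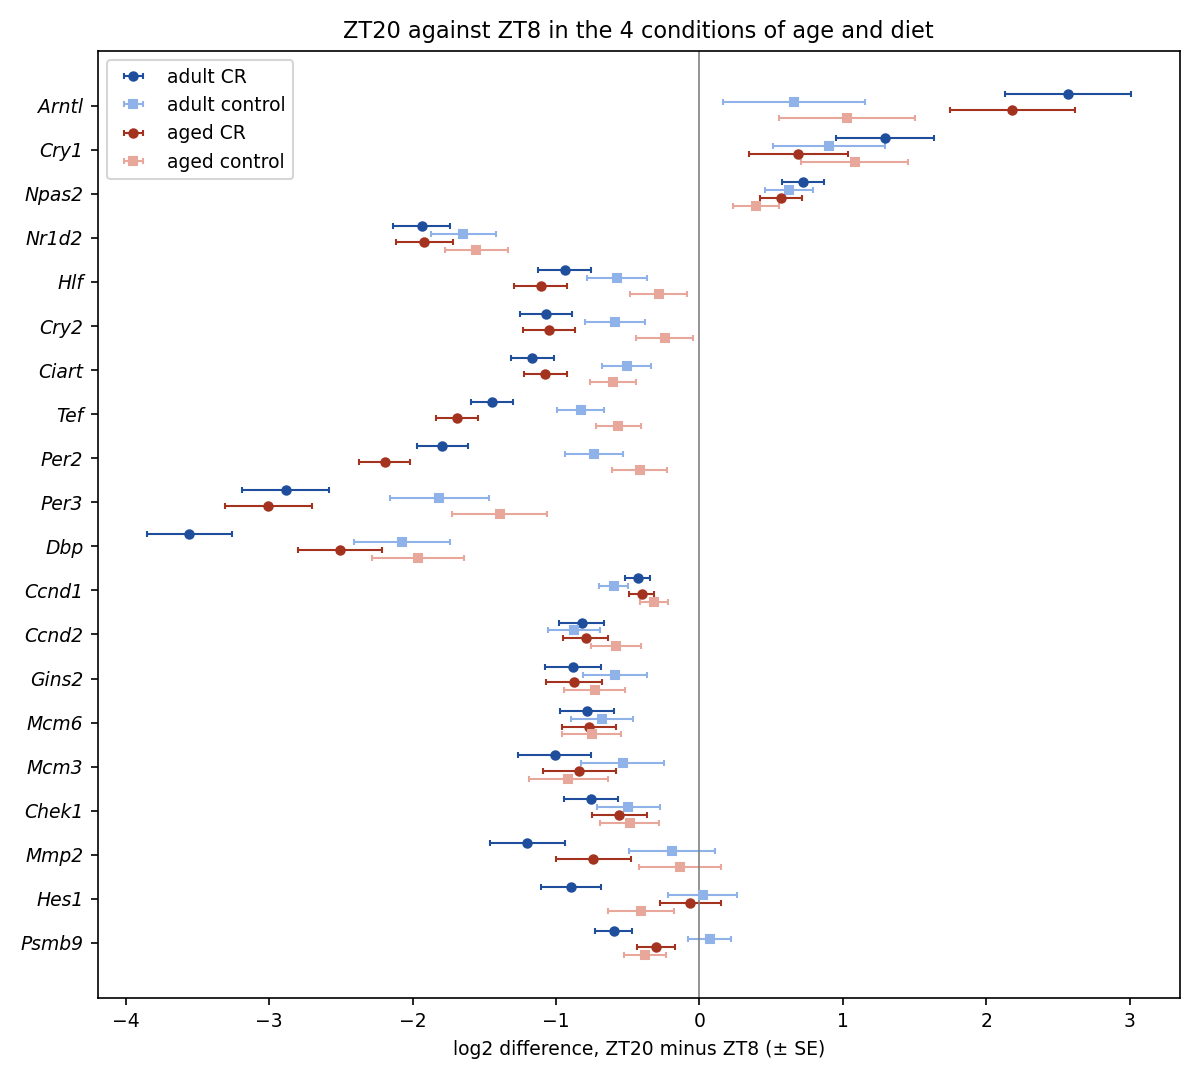
Log2 difference of ZT20 minus ZT8 with its standard error (x axis) for 20 genes (rows) in adult CR (dark blue), adult control (light blue), aged CR (dark red) and aged control mice (light red). Clock genes from Hlf to Dbp lie farther from 0 in both CR groups, a difference between diets that no gene's test passed in adult mice and that was not tested in aged mice. The values of Nr1d2, the cyclins and the replication genes drawn (Gins2, Mcm6 and Mcm3) lie closer together. Not drawn were Rfc3, Gins1 and Mcm7 (-0.68, -0.96 and -0.67 in adult CR, -0.004, -0.27 and -0.24 in adult control mice).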

How the data were processed

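The authors deposited log2 levels computed with RMA (background correction, quantile normalization, summary by probe set), a tool that the submitters' processing notes name without a version, and no further scaling was applied. Of 45140 probe sets, 28898 with 1 gene symbol in the platform annotation were kept, and those with several (551) or none (15691) were left out, as were 103 control probe sets. The brightest probe set over all arrays stood for a gene (17097 genes). Genes with a mean under the 30th percentile (4.735) were not tested, which left 13383. The number of arrays limits precision, and probe sets near background understate a change.

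One cell-means model of 24 groups was fitted to every array of the series with limma 3.58.1 in R 4.3.3 (78 residual degrees of freedom), and contrasts were called at a Benjamini-Hochberg adjusted p under 0.05 over the 13383 genes. SE is the moderated standard error and SD the spread of arrays of 1 group. Array-level measures were compared by exact permutation over the 126 splits of 9 arrays (scipy 1.17.1, two-sided). The script was tested on simulated data with known changes and noise drawn independently for each gene. Of changes of 0.5, 1 and 2 log2 units, 39.55%, 89.85% and 99.39% were called in the right direction. A list without a called gene can thus hold changes near 0.5. Matching the replicate numbers of ZT20 and ZT8 gave correlations of deviations between -0.102 and 0.224, against -0.344 to 0.286 for unlike numbers. The numbers were therefore not taken to pair the arrays, though these few values cannot exclude a pairing.

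The arrays, the 33 gene lists and the cell type markers were chosen with earlier results of these data known, and no list is independent support. The genes named were the 12 largest rises and 12 largest falls among called genes, all tested clock genes, up to 4 called members of each list with the smallest p, and the 3 smallest p values of each test between conditions. Alternatives changed the arrays in the fit, the filter, the choice of probe set, the scaling, the covariates, the weights, the replicate block, the threshold and each array in turn. Promoters are from RefSeq (GRCm38.p6) and 67 of the 87 called genes had one.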

Additional observations from a re-analysis of the deposited data

Results flagged for a closer look

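In 8 of 140 sets of values of 1 group, a lone array stood apart from the rest by Dixon's criterion, where chance gives about 1 in 20. Replicate 4 of ZT8 was lowest for Tnfaip3 (8.50), Per2 (7.57) and Rora (10.65). Replicate 2 of ZT8 was lowest for Dtx4 (6.18) and replicate 3 of ZT8 highest for Csnk1e (7.65). At ZT20, replicate 2 was highest for Sectm1b (7.39) and for the summed level of sebaceous gland markers (7.15), and replicate 1 was highest for Usp2 (9.76). Of these genes, the calls of Per2 and Sectm1b held without each array in turn, whereas that of Tnfaip3 was lost without replicate 4 of ZT8 and that of Dtx4 without replicate 2 of ZT8. Rora, Csnk1e and Usp2 were not called. All values are log2 levels.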

How the results depend on the processing

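Of 39 named called genes, 20 kept the call in all 21 alternatives, Rsad1 kept it in the 20 in which it was tested, and 18 lost it at least once, none with a change of sign. With 1 array left out, the count of higher genes ranged between 11 and 27 and that of lower genes between 35 and 71. The 22 higher genes became 12 with arrays centred on their median, 46 with repeated quantile normalization, 56 with the array's 10th percentile as a covariate and 12 at an adjusted p under 0.01. The 65 lower genes became 118 with only the 9 arrays, 103 with the 10th percentile as a covariate and 34 at an adjusted p under 0.01. With only the 9 arrays, 14 of the 22 higher and 51 of the 65 lower genes kept their call. Crispld2 and Tnfaip3 were among those that lost it. With array quality weights, whose estimate stopped before its tolerance, there were 607 higher and 449 lower genes, 1 gene that differed between the diets and 4 between the ages.

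At the neighbouring times, higher genes numbered 208 with only the 30 adult CR arrays, 84 when median-centred, 260 with quantile normalization, 397 with the 10th percentile and 770 with weights, and lower genes 1015 with the 30 arrays, 1007 when median-centred, 356 with quantile normalization and 2296 with weights. In adult control mice there were 144 higher and 43 lower genes with the 10th percentile and 132 and 52 with weights. In aged CR mice there were 28 and 40 with quantile normalization, 39 lower with the 10th percentile, and 407 and 482 with weights. In aged control mice there were 3 and 7 with the filter at the 50th percentile, 5 higher with quantile normalization, 19 lower with the mean of probe sets, 79 and 39 with the 10th percentile, and 1291 and 755 with weights.

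With the Xist level as a covariate there were 24 higher and 73 lower genes in adult CR mice, 20 and 61 of them shared. Cry1 and Dab1 were among the genes that lost their call there. The replicate block gave 21 higher and 56 lower genes in adult CR mice, 19 and 54 of them shared, and 25 lower genes in aged control mice. The labels do not say whether the replicate numbers pair these samples. Signs turned only for uncalled genes. These were Rora (-0.02 with weights, between -0.07 without replicate 4 and 0.18 without replicate 2 of ZT8), Fbxw11 (0.09 with the mean of probe sets), Btrc (0.04 with that mean, 0.02 with quantile normalization, 0.01 without replicate 3 of ZT8), Cd59a (-0.04 with the mean, between -0.05 without replicate 2 of ZT20 and 0.20 without replicate 1 of ZT8, and -0.02 without replicate 2 of ZT8), Kctd17 (between -0.23 without replicate 3 and 0.03 without replicate 2 of ZT8) and Wdr19 (-0.02 with the mean). The causes were not tested.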

Other observations

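Some called genes outside the lists and the naming rule were picked out after their values were seen. Cx3cl1, the membrane-bound chemokine fractalkine, had 8.03, 7.91, 8.09, 8.11 and 8.24 at ZT20, against 9.02, 9.49, 9.12 and 9.01 at ZT8, without overlap (difference -1.08 ± 0.18, adjusted p = 6.84e-05). Ctsf, a lysosomal cathepsin, fell by 1.04 ± 0.22 and Smpdl3a, a phosphodiesterase related to acid sphingomyelinase, fell by 0.99 ± 0.19, and all 3 were called without each array in turn. Acaa2, a thiolase of fatty acid oxidation, fell by 0.50 ± 0.12, and the desmosomal cadherin Dsg2 fell by 0.56 ± 0.14. The call of Acaa2 was lost without replicate 1 or 4 of ZT20 or 3 or 4 of ZT8, and that of Dsg2 without replicate 2 or 4 of ZT20 or 2 or 3 of ZT8.

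Among the rises were also Duox1, an epithelial NADPH oxidase, with 7.31, 6.23, 6.79, 6.33 and 6.84 at ZT20, against 5.71, 5.94, 5.98 and 5.93 at ZT8 (difference 0.81 ± 0.20, adjusted p = 0.0198), the spectraplakin Macf1 (0.73 ± 0.14) and Dmkn, a secreted keratinocyte protein (0.46 ± 0.10). The call of Duox1 was lost without replicate 1 or 5 of ZT20 or 1, 2 or 4 of ZT8, that of Macf1 without replicate 4 of ZT8 and that of Dmkn without replicate 2 of ZT8. Of 23 keratinocyte differentiation genes none was called by limma and 1 had an unadjusted p under 0.05.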
